A study of Mus musculus with 12 samples.

Results

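A mouse sperm leaves the epididymis unable to fertilize and gains that ability in the female tract by capacitation. Bicarbonate enters the cell and activates a soluble adenylyl cyclase, cAMP activates protein kinase A, the cytoplasm becomes more alkaline, and the opening of a sperm-specific potassium channel hyperpolarizes the membrane. Ion pumps hold the sodium and calcium gradients on which these steps depend. Because mature sperm hardly transcribe, their mRNA is for the most part left over from spermatogenesis.

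The transcripts of 9 genes of this machinery were followed: Adcy10, Prkaca, Slc9c1, Hvcn1, Kcnu1, Lrrc52, Atp1a4, Slc26a8 and Atp2b4. They were taken from the tables by symbol, and each of the 9 had an entry among the 51826 of the sperm table and among the 23502 of the testes table, which together hold 54660 names. The sperm came from the cauda epididymis of mice at postnatal day 56 (P56), 3 WT and 3 Xap5l KO libraries, the knockout being a global deletion made with CRISPR/Cas9 on C57BL/6J. The testes were whole organs of P16 mice, 3 WT and 3 Xap5 cKO libraries, in which a Stra8-driven Cre recombinase targets floxed Xap5 in germ cells from the spermatogonial stage, while somatic cells keep the gene. The labels call the controls of both tissues WT. Where it describes the mice, the study names Xap5 fl/Y males as controls of the Xap5 cKO, whose Cre is a Stra8-GFPCre knockin. Whether the WT testes carried the floxed allele is not said in the labels. Xap5 and Xap5l are paralogous nuclear proteins, listed in the tables as Fam50a and Fam50b.

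Library totals lay between 38881197 and 52308452 counts in sperm and between 32251198 and 36759054 in testes. Fam50b had 574, 440 and 419 counts in WT sperm, against 18, 23 and 8 in Xap5l KO sperm. Fam50a was also lower in Xap5l KO sperm, with means of 16.1 CPM (counts scaled to library size) in WT and 9.46 CPM in Xap5l KO. That fall was below 2-fold (log2 fold change -0.76, adjusted p = 0.0393 in edgeR's quasi-likelihood test). Fam50a, which the somatic cells of the testes also express, had 819, 811 and 988 counts in WT testes, against 673, 616 and 651 in Xap5 cKO testes, which passed the test at -0.33 on the log2 scale (adjusted p = 0.0495 in edgeR's quasi-likelihood test). Fam50b was downregulated in the same testes, with 532, 539 and 197 counts in WT, against 6, 0 and 7 in Xap5 cKO. Sperm and spermatid markers summed to 47000 to 134000 CPM (counts scaled to library size) in sperm. In P16 testes they summed to 5.02 to 8.19 CPM, led by Gapdhs, and Prm2 and Smcp, genes of spermatids, had no count. The sperm libraries also carried epididymal markers (5950 to 8060 CPM in WT and 4220 to 5880 in Xap5l KO, mostly Crisp1) and leukocyte markers (861 to 974 CPM and 190 to 561, led by Lyz2). In such bulk samples, fewer cells of a type and less RNA per cell cannot be told apart.

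RefSeq promoters were matched for 7 of the 9 genes, all but Kcnu1 and Hvcn1. Of these, 4 are shown, those of the 3 genes that were downregulated in Xap5 cKO testes and that of Atp2b4, which shares a motif with a pair of them. Each runs from 250 bases before the annotated start to 30 bases after it, in GRCm38.p6. Slc9c1 lies at chr16:45535016-45535295 on the plus strand, Adcy10 at chr1:165484933-165485212 on the plus strand, Slc26a8 at chr17:28689958-28690237 on the minus strand and Atp2b4 at chr1:133753718-133753997 on the minus strand. The Atp2b4 start matched here, at 133753747, lies inside the gene, which GENCODE gives from 133699457 to 133801041. The Slc26a8 start, at 28689987, also lies inside its gene, given from 28637783 to 28690233. Beyond the windows named above, the sequence before the outer ends of both genes was not read. Capitals mark GGGCGGGG, a GC box of the kind that Sp and KLF factors bind, and AACTGTC, which holds the core letters bound by MYB factors. MYBL1, a MYB factor, is known as an activator of pachytene genes.
Slc9c1 promoter: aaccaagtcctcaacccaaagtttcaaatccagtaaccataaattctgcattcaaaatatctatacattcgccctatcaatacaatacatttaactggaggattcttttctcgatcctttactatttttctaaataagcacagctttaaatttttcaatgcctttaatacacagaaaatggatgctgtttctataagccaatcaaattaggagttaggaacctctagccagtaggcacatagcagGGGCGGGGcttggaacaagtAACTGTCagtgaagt
Adcy10 promoter: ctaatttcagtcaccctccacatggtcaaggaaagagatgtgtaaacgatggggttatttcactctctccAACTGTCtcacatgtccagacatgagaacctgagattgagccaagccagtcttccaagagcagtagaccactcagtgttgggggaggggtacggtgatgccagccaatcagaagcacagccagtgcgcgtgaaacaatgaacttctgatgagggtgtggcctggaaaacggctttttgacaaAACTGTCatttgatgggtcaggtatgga
Slc26a8 promoter: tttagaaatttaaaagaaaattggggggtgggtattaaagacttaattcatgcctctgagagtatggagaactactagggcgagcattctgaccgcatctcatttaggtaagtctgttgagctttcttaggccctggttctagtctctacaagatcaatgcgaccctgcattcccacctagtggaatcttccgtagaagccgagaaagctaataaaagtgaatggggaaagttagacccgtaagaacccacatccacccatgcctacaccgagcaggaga
Atp2b4 promoter: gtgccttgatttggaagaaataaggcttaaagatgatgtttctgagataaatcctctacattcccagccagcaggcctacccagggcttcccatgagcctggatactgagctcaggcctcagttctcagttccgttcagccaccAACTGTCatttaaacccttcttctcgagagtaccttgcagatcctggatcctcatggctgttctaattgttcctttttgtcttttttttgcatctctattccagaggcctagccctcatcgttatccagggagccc

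Motifs were searched on both strands of windows of 300 bases, 250 before and 50 after the start, of which RefSeq gave 32851. AACTGTC stood in the windows of 3 of the 7 matched genes, against 3.43% of all windows. Adcy10 held it at -180 and at 3, Slc9c1 at 16 and Atp2b4 at -106, counted from the start as 1 and in each case on the strand of the gene. The letters were picked after these promoters had been read, so that the share is a description only. GGGCGGGG was found in the window of Slc9c1 alone among the 7 genes, beginning at -5, and in 17.6% of all windows. TGACG, the opening letters of the cAMP response element, was found for Atp2b4 and Prkaca (20.8% of all windows), GTTGCC, letters of the X-box, for Prkaca (12.5%) and the forkhead site GTAAACA for none of the 7 (3.65%). Slc26a8 was downregulated in Xap5 cKO testes with none of these letters in its window, which was taken at a start inside the gene. Atp2b4 held AACTGTC at its internal start and did not pass the test there. Whether any of these letters has a part in the results was not tested.

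To examine whether loss of Xap5l altered this machinery, Xap5l KO sperm were compared with WT sperm. Of the 9 genes, 4 were upregulated (adjusted p under 0.05 and fold change above 2), where 7.59% of the 20945 tested genes were. These were the potassium channel Kcnu1 and its partner Lrrc52, the sodium/proton exchanger Slc9c1 and the sodium pump Atp1a4, which stood 2.72 to 3.27-fold above WT. Adcy10 also passed the test, below 2-fold. In these 5 genes the mutant and WT libraries did not overlap, as in 38.3% of all tested genes. None of the 9 was downregulated in edgeR, against 1.27% of all tested genes, nor with DESeq2, and 0 were lower at an unadjusted p under 0.05. The median log2 fold change was 0.91 over the 9 genes and -0.0833 over all tested genes.

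**Figure D1:**
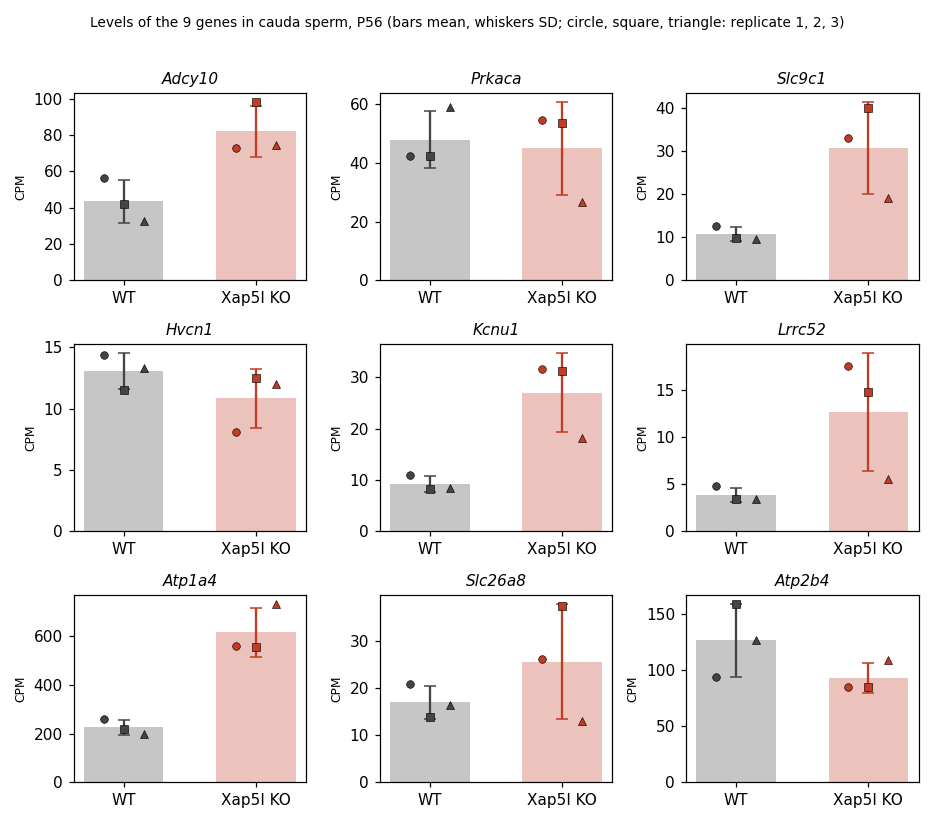
Level of each gene in CPM (y axis, linear from 0) in 3 WT and 3 Xap5l KO sperm libraries of P56 mice. Bars are means, whiskers SD and symbols single libraries. The groups do not overlap for Adcy10, Slc9c1, Kcnu1, Lrrc52 and Atp1a4, and the triangle of Xap5l KO replicate 3 is the lowest of its group for Slc9c1, Kcnu1, Lrrc52, Slc26a8 and Prkaca.

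Adcy10 encodes the bicarbonate-sensitive adenylyl cyclase that starts the cascade. It lies on chromosome 1 of GRCm38 from 165485183 to 165576774. Its level was 56.1, 42 and 32.5 CPM in WT sperm, against 73.1, 98 and 74.7 CPM in Xap5l KO sperm, so that the lowest mutant library was above the highest WT library. The log2 fold change was 0.91 ± 0.251 (SE, adjusted p = 0.045 in edgeR's quasi-likelihood test). Prkaca, the catalytic subunit of protein kinase A, whose alternative first exon gives the form found in sperm, had 42.4, 42.5 and 59.1 CPM in WT, against 54.6, 53.5 and 26.8 CPM in Xap5l KO. A pair of the mutant libraries lay inside the WT range and the other below it, and the difference of -0.09 ± 0.292 (SE) did not pass (adjusted p = 0.842). Counts per gene do not separate the first exons.

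Among the genes that set intracellular pH, Slc9c1, the sperm-specific sodium/proton exchanger with a voltage sensor and a cyclic nucleotide-binding domain, was upregulated. It had 12.7, 9.96 and 9.6 CPM in WT sperm, against 33.1, 40.1 and 19.2 CPM in Xap5l KO sperm, that is, log2 fold change 1.52 ± 0.284 (SE, adjusted p = 0.0165). Even the lowest mutant library exceeded every WT library. Hvcn1, the voltage-gated proton channel, had 14.4, 11.5 and 13.3 CPM in WT, against 8.08, 12.5 and 12 CPM in Xap5l KO. The groups overlapped and the log2 fold change of -0.26 ± 0.227 (SE) did not pass (adjusted p = 0.441). Leukocytes express Hvcn1 as well, and 3 of the 12 leukocyte markers were downregulated in these libraries, against 1.27% of all tested genes. The part of these cells in the Hvcn1 level was not tested. Of the exonic length of Hvcn1, 44.2% (1574 bp) is shared with Tctn1 on the opposite strand, and the use of strand in counting is not given in the sources used here. Tctn1 itself had 12.7 to 15.9 CPM in WT and 23.5 to 25.8 CPM in Xap5l KO sperm (log2 fold change 0.79, adjusted p = 0.0314).

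Both subunits of the sperm potassium channel were upregulated. Kcnu1, on chromosome 8 from 25849623 to 25937939, encodes the pore (SLO3) and had 11, 8.22 and 8.44 CPM in WT, against 31.6, 31.3 and 18.2 CPM in Xap5l KO sperm. Its log2 fold change was 1.55 ± 0.262 (SE, adjusted p = 0.0139). Lrrc52, on chromosome 1 from 167445669 to 167466780, is the auxiliary subunit that shifts the voltage range in which the channel opens. It had 4.79, 3.42 and 3.41 CPM in WT, against 17.6, 14.8 and 5.59 CPM in Xap5l KO. Its log2 fold change of 1.71 ± 0.388 (SE, adjusted p = 0.026) had the largest standard error of the 4 upregulated genes, and Xap5l KO replicate 3 was close to WT. Without that library the log2 fold change was 2.15, and without Xap5l KO replicate 1 it was 1.40 and the call was lost (adjusted p = 0.0753).

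Atp1a4, the catalytic subunit of the sodium pump that is particular to sperm, was the most abundant of the 9 genes in sperm. Its gene spans chromosome 1 from 172223513 to 172258414. It had 259, 220 and 199 CPM in WT, against 560, 554 and 730 CPM in Xap5l KO, that is, log2 fold change 1.44 ± 0.255 (SE, adjusted p = 0.0148). Here Xap5l KO replicate 3 was the highest library, in contrast to the exchanger and the channel. Per kilobase of exon, Atp1a4 had 61.6 ± 8.33 CPM per kb (SD, n = 3) in WT sperm, followed by Prkaca with 19.3 ± 3.84 and Atp2b4 with 10.4 ± 2.65. The other 6 lay between 2.47 and 4.98 CPM per kb in WT sperm, and among these 6 the libraries of neighbours in the order of levels overlapped. In Xap5l KO sperm Atp1a4 had 168 ± 27.2 CPM per kb.

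The remaining transporters did not pass the test. Slc26a8, an anion transporter of sperm that associates with CFTR, had 20.8, 13.8 and 16.5 CPM in WT, against 26.3, 37.5 and 13.1 CPM in Xap5l KO. A pair of mutant libraries stood above WT and replicate 3 below it, with a log2 fold change of 0.59 ± 0.345 (SE, adjusted p = 0.248). Atp2b4, the plasma membrane calcium pump of the sperm tail, had 94.4, 159 and 127 CPM in WT, against 85.5, 84.9 and 109 CPM in Xap5l KO. Its log2 fold change was -0.45 ± 0.248 (SE, adjusted p = 0.227), and the groups overlapped.

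The sperm calls depended on which libraries were included. Leaving out either WT replicate 2 or 3, or else mutant replicate 2, left none of the 9 genes upregulated, and 1 gene in the whole table. In these fits the log2 fold changes of Slc9c1, Kcnu1, Lrrc52 and Atp1a4 stayed between 1.28 and 1.62, with adjusted p-values from 0.0599 to 0.117. Without mutant replicate 1, 3 of the 9 were upregulated, Lrrc52 losing its call. Without Xap5l KO replicate 3 or WT replicate 1, 5 of the 9 were upregulated, Adcy10 joining the 4, and Adcy10 passed the test in these 2 of the 6 fits. Xap5l KO replicate 3 had 10.5% mitochondrial counts, against 18.6% to 27.4% in the other sperm libraries. Its mean correlation was 0.967 with its own group and 0.96 with WT. Of the markers of other stages, none of 5 tested spermatogonial and 8 leptotene and zygotene genes was called in the same sperm. The spermatogonial sum was 23 to 24.9 CPM in WT and 22.6 to 26.3 CPM in Xap5l KO. The leptotene and zygotene sum was 20.4 to 31.7 CPM in WT and 25.8 to 34.3 CPM in Xap5l KO. Among pachytene genes, 4 of 8 were upregulated, against 7.59% of all tested genes. Their summed level was 1380 to 2310 CPM in WT and 2730 to 3380 CPM in Xap5l KO, and none of the 8 sperm and spermatid genes was called. Whether these differences have a part in the results for the 9 genes was not tested.

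**Figure D2:**
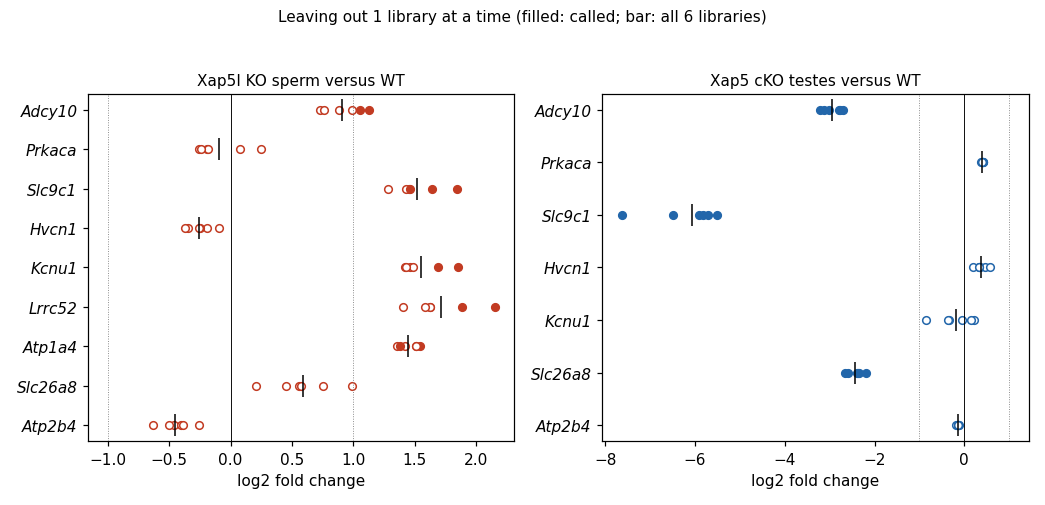
Log2 fold change (x axis) of each tested gene (y axis) with 1 library left out at a time, in sperm (left) and testes (right). Each circle is 1 of 6 fits, filled where the gene was called at an adjusted p under 0.05 and a fold change above 2, the black bar is the value with all 6 libraries, and dotted lines mark a 2-fold change. In testes Adcy10, Slc9c1 and Slc26a8 are filled in all 6 fits, while in sperm Slc9c1, Kcnu1 and Atp1a4 are filled in 3 and Lrrc52 in 2.

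In P16 testes the genes of this machinery were compared between Xap5 cKO and WT mice. Of the 9 genes, 7 passed the filter on low counts and 3 were downregulated, Slc9c1, Adcy10 and Slc26a8, where 10.9% of the 16821 tested genes were. None was upregulated in edgeR, against 4.15% of all tested genes, nor with DESeq2. At an unadjusted p under 0.05, 1 was higher, Prkaca, which also passed the adjusted test with a rise below 2-fold. The median log2 fold change was -0.19 over the 7 and -0.00825 over all tested genes. Lrrc52 and Atp1a4, which belong to later germ cells, were not detected in WT testes.

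**Figure D3:**
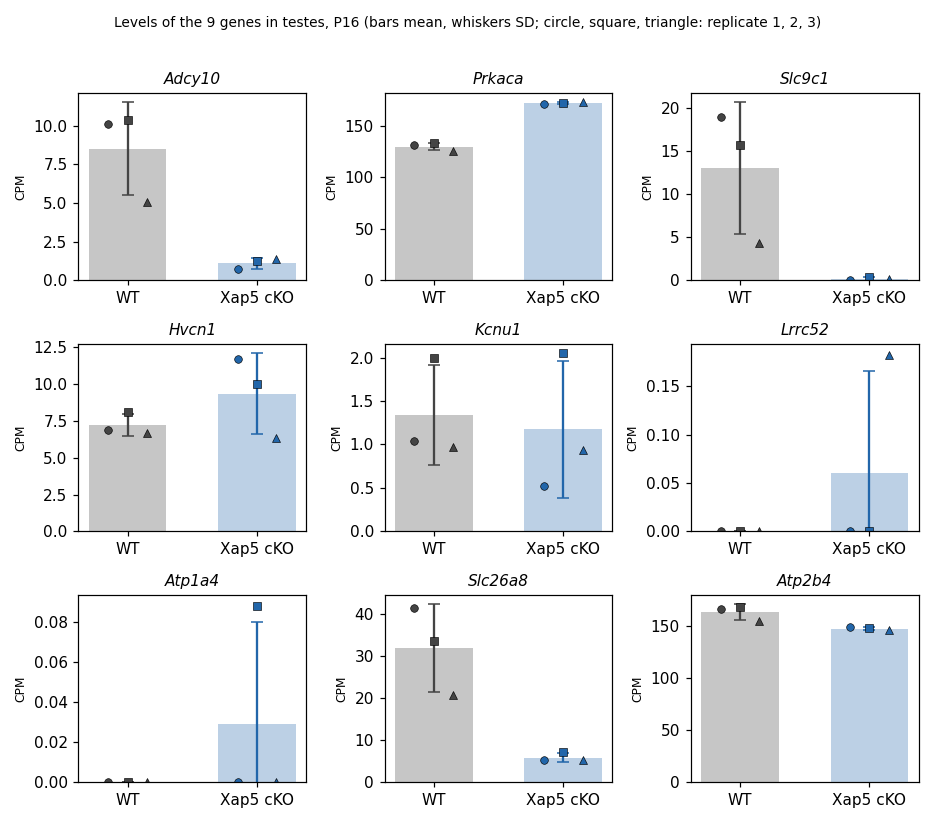
Level of each gene in CPM (y axis, linear from 0, with a scale of its own in each panel) in 3 WT and 3 Xap5 cKO testes libraries of P16 mice. Bars are means, whiskers SD and symbols single libraries. Adcy10, Slc9c1 and Slc26a8 are lower in every Xap5 cKO library and Prkaca is higher, while Lrrc52 and Atp1a4 show 6 and 3 counts in 1 library each.

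Slc9c1, on chromosome 16 from 45535309 to 45607001, stood furthest from WT of the 7 tested genes. It had 635, 573 and 156 counts in WT testes (18.9, 15.7 and 4.34 CPM) and 0, 15 and 4 counts in Xap5 cKO testes (0, 0.44 and 0.121 CPM). The fitted log2 fold change was -6.06 ± 0.839 (SE, adjusted p = 0.000315 in edgeR's quasi-likelihood test), and its size rests on few counts in the mutant. In the library without a read, 3 counts would correspond to 0.0933 CPM. WT replicate 3 was the lowest of the WT libraries and still above every mutant library.

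Adcy10 had 10.1, 10.4 and 5.06 CPM in WT, against 0.715, 1.23 and 1.37 CPM in Xap5 cKO testes. The groups did not overlap and the log2 fold change was -2.94 ± 0.369 (SE, adjusted p = 0.000187). Slc26a8, on chromosome 17 from 28637783 to 28690233, had 41.5, 33.6 and 20.9 CPM in WT, against 5.25, 7.19 and 5.32 CPM in Xap5 cKO. Its log2 fold change was -2.43 ± 0.258 (SE, adjusted p = 7.89e-05). A further entry of the testes table with the same symbol and an added number had 12.9, 7.38 and 6.06 CPM in WT, against 1.71, 1.5 and 2.13 CPM in Xap5 cKO (log2 fold change -2.30, adjusted p = 0.00037), and after both entries were summed the value was -2.40. All 3 downregulated genes kept the call whichever library was left out.

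Prkaca had 131, 133 and 126 CPM in WT, against 171, 172 and 173 CPM in Xap5 cKO testes. The libraries of each group lay close together and apart from the other group, and the log2 fold change of 0.40 ± 0.0542 (SE, adjusted p = 0.00029) stayed between 0.38 and 0.41 when single libraries were left out. Per kilobase it was also the most abundant of the 9 genes in WT testes, with 52.3 ± 1.42 CPM per kb (SD, n = 3), ahead of Atp2b4 with 13.4 ± 0.586 and Slc26a8 with 6.73 ± 2.19. Slc9c1 (3.2 ± 1.89 CPM per kb), Hvcn1 (2.03 ± 0.212), Adcy10 (0.973 ± 0.342) and Kcnu1 (0.358 ± 0.154) followed, and the libraries of Slc26a8 and Slc9c1, and of Slc9c1 and Hvcn1, overlapped. Sertoli cell markers summed to 4640 to 5040 CPM in WT and 7730 to 9240 CPM in Xap5 cKO testes. Of the 8, 7 were higher at an adjusted p under 0.05, as were 4202 of the 16821 tested genes. Above 2-fold there was 1 of them, against 4.15% of all tested genes. Of the 7 Leydig cell markers, 3 were upregulated and 1 was downregulated, against 4.15% and 10.9% of all tested genes. The part of the somatic cells in the Prkaca difference was not tested.

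Atp2b4 had 167, 169 and 155 CPM in WT, against 149, 148 and 146 CPM in Xap5 cKO testes. Although the groups did not overlap, as in 62.3% of all tested genes, the log2 fold change of -0.15 ± 0.0575 (SE) did not pass (adjusted p = 0.0592). Hvcn1 had 6.88, 8.09 and 6.7 CPM in WT, against 11.7, 10 and 6.35 CPM in Xap5 cKO, with overlapping groups and a log2 fold change of 0.37 ± 0.242 (SE, adjusted p = 0.226). Leukocyte markers were higher in the same testes, at 82.4 to 114 CPM in WT and 170 to 232 CPM in Xap5 cKO. Of these markers 6 of 12 were upregulated, against 4.15% of all tested genes, and their part in the Hvcn1 level was not tested.

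Kcnu1 had 35, 73 and 35 counts in WT, against 17, 70 and 31 counts in Xap5 cKO testes, and the log2 fold change was -0.19 ± 0.559 (SE, adjusted p = 0.8). The libraries of each group spread widely, and leaving out single ones moved the value between -0.85 and 0.22. Lrrc52 had 0 counts in every WT library, against 0, 0 and 6 in Xap5 cKO, and Atp1a4 had 0 in every WT library, against 0, 3 and 0 in Xap5 cKO. In the WT libraries 3 counts, the limit that a count of 0 allows, correspond to 0.0823 to 0.0893 CPM, a limit that covers counting error only. Neither gene passed the filter on low counts, so that neither was tested, and nothing can be said about their response to the loss of Xap5.

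The levels of the 3 downregulated genes were set beside markers of meiotic stages. Of the markers of pachytene spermatocytes, 7 of 8 were downregulated, and of those of leptotene and zygotene spermatocytes also 7 of 8, against 10.9% of all tested genes. The summed pachytene level was 949 to 1930 CPM in WT and 182 to 249 CPM in Xap5 cKO testes, and the leptotene and zygotene level 1980 to 2310 CPM and 900 to 1210 CPM. Most of the pachytene sum in Xap5 cKO testes came from Hspa2 and Tbpl1, with means of 132 and 60 CPM. The median log2 fold change of the 8 pachytene markers was -5.31, beside -6.06 for Slc9c1, -2.94 for Adcy10 and -2.43 for Slc26a8. As a percentage of the WT mean, WT replicate 3 had 60.3% of the pachytene sum, 59.4% of Adcy10, 65.3% of Slc26a8 and 33.4% of Slc9c1, but 96.9% of Prkaca and 94.7% of Atp2b4. The Xap5 cKO libraries had 11.6% to 15.8% of the pachytene sum, 8.39% to 16.1% of Adcy10, 16.4% to 22.5% of Slc26a8 and 0% to 3.39% of Slc9c1. The part of the pachytene cells in these differences was not tested.

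**Figure D4:**
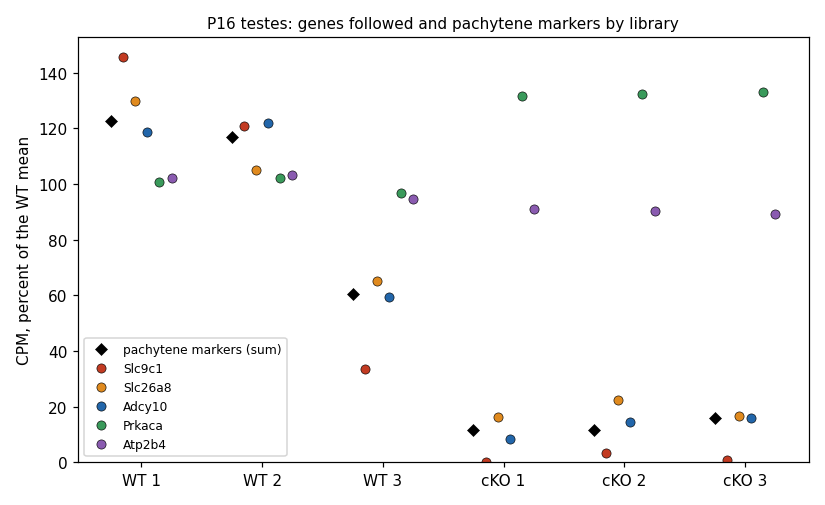
Level of 5 genes and summed level of 8 pachytene markers in each P16 testes library (x axis), as a percentage of the mean of the 3 WT libraries (y axis, linear from 0). In WT replicate 3 Adcy10 (59.4%), Slc26a8 (65.3%) and the summed pachytene markers (60.3%) stand at like levels. In Xap5 cKO libraries Slc9c1 lies below the marker sum, most of which there is Hspa2 and Tbpl1. Atp2b4 stays at 89.2% to 91% and Prkaca at 132% to 133%.

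The comparisons share no library, and their directions differed among the genes. Slc9c1 was the only one of the 9 called in both, higher in Xap5l KO sperm and lower in Xap5 cKO testes. Adcy10 passed the test in both, with the same pair of directions. Kcnu1, Lrrc52 and Atp1a4 were upregulated in sperm. In P16 testes Kcnu1 was tested and did not pass, and Lrrc52 and Atp1a4 stood at or near the limit of detection. Slc26a8 was called in testes and not in sperm, and the difference between tissues was not tested. Genotype, tissue and age all differ between the comparisons and cannot be told apart. Across the 12 libraries, with log2 CPM centred within each tissue, Slc9c1 had a Pearson r of 0.978 with Adcy10 and of 0.961 with Slc26a8. Among 12005 genes with at least 1 CPM on average in both tables, its closest gene was Zpbp2, which encodes a zona pellucida-binding protein of the acrosome, with r = 0.998. These libraries share the differences between genotypes, and no test was applied to these correlations.

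**Figure D5:**
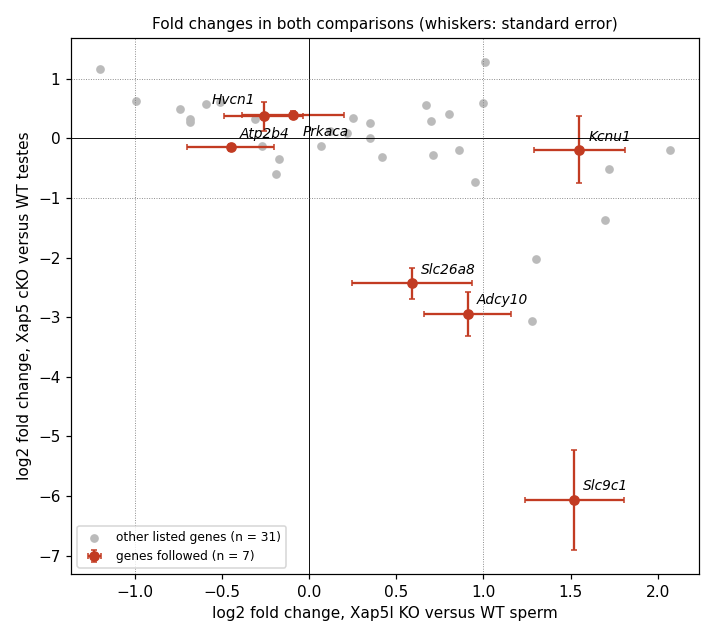
Log2 fold change in Xap5l KO sperm (x axis) and in Xap5 cKO testes (y axis) of the 7 genes tested in both (red, whiskers are standard errors) and of 31 other listed capacitation genes (grey). Dotted lines mark a 2-fold change. Slc9c1 lies at the lower right (1.52 and -6.06), Adcy10 and Slc26a8 to its upper left, and Kcnu1 at the right near 0 on the y axis.

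A list of 35 further genes of the same pathways was examined in both tissues. In sperm, 6 of 34 tested genes were upregulated, against 7.59% of all tested genes. None was downregulated in edgeR, against 1.27%, nor with DESeq2, and 5 were lower at an unadjusted p under 0.05, 1 of them by more than 2-fold. The median log2 fold change was 0.35. The upregulated genes were Pde4a, a cAMP phosphodiesterase (2.07, standard error 0.415, adjusted p = 0.019), Pkdrej, a polycystin family member of the sperm head (1.72), Cftr, the chloride and bicarbonate channel (1.70), Akap3 (1.30) and Akap4 (1.09), which anchor protein kinase A to the fibrous sheath, and the sodium/proton exchanger Slc9b1 (1.28). These small counts spread over the groups, where 3 of 11 cAMP and protein kinase A genes, 1 of 5 anion transport genes, 1 of 3 sodium/proton exchange genes and 1 of 5 phosphorylation genes were upregulated, and none of the 2 potassium channel relatives, 4 sodium pump genes and 4 calcium pump genes. No call was left when any 1 of the 3 libraries named above (WT replicates 2 and 3, mutant replicate 2) was dropped, and Cftr and Pkdrej kept theirs when mutant replicate 1 was dropped. Slc26a3 was downregulated when Xap5l KO replicate 3 was left out.

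In testes, 3 of 32 tested genes of the list were downregulated and 1 was upregulated, against 10.9% and 4.15% of all tested genes, so that the shares were close to those of the table. The median log2 fold change was 0.10. Slc9b1 had 34.4, 30.6 and 15.6 CPM in WT, against 2.89, 2.99 and 3.77 CPM in Xap5 cKO testes (log2 fold change -3.06, standard error 0.297, adjusted p = 5.28e-05). Its WT replicate 3 was low, as for the other exchanger Slc9c1. Akap3 (log2 fold change -2.02, adjusted p = 0.000443) and Cftr (-1.37, adjusted p = 0.000486) were the others that fell, and Akap4 was too low to be tested. Pde4d, another cAMP phosphodiesterase, was upregulated (1.16, adjusted p = 0.00661), with 74.5, 91.5 and 35.7 CPM in Xap5 cKO against 29.5 to 30.7 CPM in WT, and lost the call without Xap5 cKO replicate 2 (0.88). Of the others, 10 rose and 3 fell below 2-fold, where 20.8% and 17.2% of all tested genes did. Of the other subunits of protein kinase A, named after their values had been seen, Prkacb (0.27) and Prkar2a (0.56) passed, and Prkar1a (0.12), Prkar1b (0.09) and Prkar2b (0.50, adjusted p = 0.0511) did not.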

How the data were processed

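RNA-seq was analysed from 12 poly(A) libraries, grouped by their labels. Reads were trimmed with Trimmomatic 0.36 and mapped with HISAT2 2.1.0 to GRCm38, per the submitters' notes and methods, and the authors deposited whole-number counts per gene, 1 table per tissue, without normalization. The counting tool, multi-mapping and strand are not given in the sources used here.

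Each tissue was fitted alone. Counts were filtered (filterByExpr), TMM-normalized and tested with edgeR 4.0.16 (quasi-likelihood, Benjamini-Hochberg over all tested genes, R 4.3.3) with genotype as the only term, and calls needed an adjusted p under 0.05 and a fold change above 2. CPM used TMM-scaled library sizes. An exact permutation test of 3 against 3 libraries cannot go below 0.1. The labels do not say that each library is 1 animal, so p-values measure the spread between libraries.

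The 9 genes, the lists and the tests were chosen with earlier results of these data known. Genes named were the 9, listed genes called (at most 8 per comparison), Fam50a, Fam50b, the gene of highest CPM in each marker list and the closest gene of any of the 9 called in both comparisons. Tctn1, Prm2, Slc26a3, Tbpl1 and subunits of protein kinase A that were not called were named after their values had been seen. Alternatives were no filter, RLE, DESeq2 1.42.0, a replicate block, no fold change threshold, summed entries and leaving out each library. The fit was tested on simulated data. Positions came from GENCODE (GRCm38) and promoters from RefSeq (GRCm38.p6).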

Additional observations from a re-analysis of the deposited data

How the results depend on the processing

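For the genes tested, the log2 fold changes kept their direction and their side of the call (adjusted p under 0.05 and fold change above 2) in 80 of 80 values without the filter, with RLE factors, with DESeq2, with summed entries and with a replicate block. Without the fold change threshold, 1 of the 9 genes was upregulated in Xap5 cKO testes (Prkaca), and among the 35 listed genes 11 were upregulated and 6 downregulated there. With that setting 4202 and 4734 of all genes were up- and downregulated in testes, and 643 downregulated in sperm. Deviations of equally numbered libraries correlated between -0.135 and 0.17 in sperm, 0.17 being replicate 1, and between -0.0452 and 8.08e-05 in testes. In sperm, replicate 1 had TMM factors of 0.8206 in WT and 0.8082 in Xap5l KO, against 1.083 to 1.123 in the other libraries. These values do not settle whether equally numbered libraries share a batch. With the block, 4 of the 9 genes were still upregulated in sperm and 3 downregulated in testes, the same genes as without it, Adcy10 in sperm no longer passed on its adjusted p (0.0665), and 147 in place of 267 genes were downregulated in sperm.

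When single libraries were left out, between 0 and 5 of the 9 genes and between 0 and 8 listed genes were upregulated in sperm, and between 0 and 1 listed gene was downregulated. In testes between 0 and 2 listed genes were upregulated. Over all genes in sperm, between 1 and 2402 were upregulated and between 1 and 443 downregulated. Prkaca in sperm turned to 0.08 without WT replicate 3 and to 0.25 without Xap5l KO replicate 3, against -0.26 at the lowest, and Kcnu1 in testes, between -0.85 and 0.22, turned to 0.22 without WT replicate 2 and to 0.16 without Xap5 cKO replicate 1. The causes were not tested. Lrrc52 and Atp1a4 had too few counts in testes to be tested.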
